A study of Homo sapiens with 14 samples.

Results

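Runs of 8 or more consecutive uridines were examined in transcripts of K562, a human erythroleukemia cell line. Nucleotides of these transcripts carried scores from 2 RNA probing methods, though not every position was scored. In icSHAPE, NAI-N3 acylates the 2′-hydroxyl of flexible nucleotides. In icLASER, NAz-N3 is activated by UV light and marks solvent-accessible bases, chiefly the purines adenosine and guanosine. The members were all maximal runs of at least 8 U in which each U was scored in all 4 deposited profiles, with 1 transcript taken per gene. This gave 345 runs of 394 in 3032 transcripts, and the 345 lay in 250 genes. Of the 49 runs that were left out for an unscored position, 23 ended within 30 nt of the transcript's 3′ end, 6 started within the first 6 nt and 20 lay elsewhere. The runs were singled out because their in vivo and in vitro scores were already known to differ, so the overall differences are a description and carry no test.

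The 14 libraries came from cells of this single line. NAI-N3 was applied at 100 mM for 5 min at 37 °C to living cells (icSHAPE in vivo, 3 libraries) or to purified RNA (icSHAPE in vitro, 2 libraries), and 3 DMSO libraries served as the icSHAPE control. NAz-N3 from a 1 M stock was activated by 10 min of UV in cells (icLASER in vivo, 2 libraries) or on purified RNA (icLASER in vitro, 2 libraries), and 2 libraries without UV served as the icLASER control. The authors deposited 1 profile for each reagent and condition, to which the labels assign all replicates, in which a score of 0 is the lowest and 1 the highest enrichment over control. No spread between replicates can be had from these profiles, and per the labels the in vivo and in vitro profiles of a reagent share their control libraries. All 6 defining markers of the line that were looked up were listed in every profile, at 9.24 to 2652 RPKM. The transcripts that held a run had a median of 13.7 to 15.6 RPKM in the 4 profiles.

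Long U tracts are landing sites for many RNA-binding proteins. ELAVL1 (HuR), TIA1 and TIAL1 bind U-rich and AU-rich stretches of 3′ UTRs and affect mRNA stability and translation. HNRNPC binds U tracts in nuclear RNA, PTBP1 and U2AF2 bind the pyrimidine tract before splice acceptors, and the La protein (SSB) binds U at the ends of RNA polymerase III transcripts. A run of U has no other base to vary in, so a change of score along it is not a change of the scored base. The U at its edges still have differing neighbours. Reverse transcriptase reads RNA from the 3′ side and therefore meets the last U of a run first.

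The runs below are a selection of those described further on. They do not cover all lengths and locations, and each had a higher icLASER run mean in vivo than in vitro. Each line is 30 nt of the transcript strand, written 5′ to 3′ from the GENCODE sequence of build GRCh38, with the U run in capitals, ending 2 nt after its last U.
PTP4A2: uaauuguucuuaaaacuggaUUUUUUUUcc
GANAB: ucggggaauauuuguggguaUUUUUUUUac
HNRNPUL1: gagggggaggaagcagugacUUUUUUUUgg
CANX: gugguccaugaccucugacaUUUUUUUUga
VIM: gaauaccauuaaaacugcUUUUUUUUUUcc
HNRNPA1: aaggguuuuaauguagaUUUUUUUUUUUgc
HNRNPK: ugaaggaguccugcaucUUUUUUUUUUUau
PCBP2: auaagcuucucccuggUUUUUUUUUUUUgg
SUMO2: acaagcauauugcaUUUUUUUUUUUUUUaa
FUBP1: uaguguuuccUUUUUUUUUUUUUUUUUUga
In the genome the runs of PTP4A2 (chr1:31906579-31906586, minus strand), GANAB (chr11:62624898-62624905, minus), HNRNPUL1 (chr19:41307090-41307097, plus), VIM (chr10:17237530-17237539, plus), HNRNPA1 (chr12:54284802-54284812, plus), HNRNPK (chr9:83969308-83969318, minus), PCBP2 (chr12:53479672-53479683, plus), SUMO2 (chr17:75168132-75168145, minus) and FUBP1 (chr1:77948626-77948643, minus) lie in annotated 3′ UTRs. The CANX run shown (chr5:179722919-179722926, plus) is in the coding sequence.

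By location, 253 of the 345 runs were in 3′ UTRs, 44 in other noncoding transcripts, 34 in transcripts annotated as retained-intron, 8 in coding sequence and 6 in 5′ UTRs. By length, 133 runs had exactly 8 U, 125 had 9 to 11 and 87 had 12 or more, up to 30 U in the 5′ UTR of NMD3, whose product exports the large ribosomal subunit. Of the 250 genes, 183 held a single run. There were 341 distinct genomic runs, since 4 entries shared a position with a run of an overlapping gene, and 11 pairs of neighbouring runs lay within 20 nt of each other and share flanking positions. The mean RPKM of the transcripts ranged from 6.52 to 582.

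Scores over the runs were higher in vivo than in vitro with both reagents. For icSHAPE the difference between the in vivo and in vitro run means had a median of 0.0728 over the 345 runs, with quartiles of -0.0045 and 0.151. It was above 0 in 254 runs, or 73.6% (Wilson 95% interval 68.7 to 78.0, counting error only), where 57.8% of all 8-nt windows tiled along the same transcripts were above 0, and below 0 in 87, against 36% of windows. It reached at least 0.1 in 142 runs, against 22.6% of tiled windows, and was at or below -0.1 in 31, against 12.1% of windows. For icLASER the median difference was 0.167, with quartiles of 0.03 and 0.330. It was above 0 in 275 runs, or 79.7% (75.2 to 83.6), against 51.3% of windows, and below 0 in 60, against 43.3%. It reached at least 0.1 in 221 runs, against 16.4% of windows, and was at or below -0.1 in 22, against 15.4%. These shares chose the runs in the first place, so nothing further is read from them.

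Scores on the U of the runs and on uridine in general were set side by side. Over all 661586 scored U of the same transcripts icLASER averaged 0.101 in the in vitro profile and 0.119 in cells, and over the 3674 U of the runs it averaged 0.164 and 0.366. A score of exactly 1 was held in the icLASER in vivo profile by 21.9% of the U in runs, compared with 2.72% of all U. In icSHAPE the mean over all U was 0.161 in vitro and 0.180 in vivo, and over the U of the runs it was 0.121 and 0.210. The runs were thus below the average U with NAI-N3 on purified RNA and above it in cells.

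The reagents did not rank the runs alike. The difference was above 0 with both reagents in 206 runs and below 0 with both in 18, while 67 runs were higher in icLASER and lower in icSHAPE and 40 were the reverse. The same split was not taken over tiled windows, so these counts are a description only. Across the 345 runs the icSHAPE and icLASER differences had a Spearman correlation of -0.07 and a Pearson correlation of -0.02, given as a description, since runs of 1 gene share transcripts and libraries. Runs of the same gene were about as unlike as runs in general. Over the 162 runs of the 67 genes with more than 1 run, the SD of the icLASER difference within a gene was 0.203, beside 0.223 over all runs, and for icSHAPE it was 0.157 beside 0.158.

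The position of the icLASER signal was tied to the 3′ end of the run. With runs aligned at their last U, the mean icLASER in vivo score had a peak of 0.716 at 9 nt before the last U, where the in vitro profile was at 0.290, and 72.1% of the runs scored at least 0.5 there in vivo, compared with 24.7% in vitro. On the last U itself the in vivo mean was 0.252, beside 0.156 in vitro. In runs of 8 U the peak lies outside the run, 2 nt before its first U, at 0.649 in vivo and 0.327 in vitro. In runs of 10 U it falls on the first U, and in longer runs inside the run. The largest in vivo minus in vitro difference was 9 nt before the last U at each length from 7 to 11, at 13 and at 14 or more, and 10 nt before it at 12. The in vivo score itself was highest at these positions too, except at 14 or more, where it was 0.840 at 10 nt and 0.824 at 9 nt. In runs of 6 U the largest difference was 0.0816, 6 nt before the last U.

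This peak was summarised, after the profiles had been seen, by the mean score over the 4 nt from 10 to 7 nt before the last U, which could be scored in 343 runs. The mean over runs was 0.211 in vitro and 0.556 in vivo, and the median difference was 0.342. The difference was above 0 in 298 of the 343 runs, where 49.1% of 4-nt windows tiled along the transcripts were, and it was at least 0.1 in 271, against 18.7% of windows. It was below 0 in 24, against 41.2%, and at or below -0.1 in 11 runs, against 17% of windows. The median was 0.246 in runs of 8 U, 0.397 in runs of 9 to 11 and 0.434 in runs of 12 or more. Just outside the rule, the 333 runs of 7 U had a median of 0.107, and runs of 5 U or fewer showed mean differences in this window between -0.00210 and 0.00531. With icSHAPE the same window had a median difference of 0.0325, and was above 0 in 206 runs and below 0 in 101, where 53.9% and 34.6% of 4-nt windows were. It was at least 0.1 in 127 runs (23.8% of windows) and at or below -0.1 in 46 (14.7%).

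The single runs described here show the same placement, while others lack it. In the 8-U run of HNRNPA1 the icLASER window was 0.062 in vitro and 0.0635 in vivo, and in CDK6 it was 0.616 and 0. Of the 8 longest runs, NMD3 (30 U) had a window of 0 in both conditions and SNORD3B-1 (28 U) 0.0228 and 0. The window was higher in vivo in the rest of these. In the 3′ UTR of SUMO2, which encodes a small ubiquitin-like modifier, the icLASER in vivo score was 1.0 at each U from 11 to 8 nt before the last U, and the in vitro scores there were 0.429, 0.485, 0.158 and 0.23. From 5 to 2 nt before the last U the in vivo scores of SUMO2 were between 0.156 and 0.263. In HNRNPA1, a splicing repressor, the run of 11 U scored 1.0 in vivo at 10 and 9 nt before the last U and 0.663 at 8 nt, then 0.147 at 6 nt and 0.014 at 4 nt. HNRNPK, a poly(C)-binding nuclear protein, had 1.0, 1.0 and 0.733 at the same 3 positions of its run, and then 0.151 at 6 nt and 0 at 5 nt. The coding run of CANX, the endoplasmic reticulum chaperone calnexin, has 8 U, and there the high in vivo icLASER scores were on the C and A before the run, at 0.981 and 1.0, against 0.137 and 0.144 in vitro. Within that CANX run no U scored above 0.388 in vivo. The last U itself was high again in cells in HNRNPA1, at 0.839, and in HNRNPK, at 0.539. Among the U of the SUMO2, HNRNPA1 and HNRNPK runs, every in vivo score of 1.0 lay 11 to 8 nt before the last U.

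The base that carried the peak could be compared in the runs of 8 U, where it lies outside the run. At 2 nt before the run the mean icLASER in vivo score was 0.715 on A (37 runs), 0.547 on C (19), 0.765 on G (34) and 0.545 on U (43). In vitro the same positions gave 0.252 on A, 0.103 on C, 0.661 on G and 0.225 on U. The average gain in cells was 0.462 on A, 0.443 on C, 0.321 on U and 0.104 on G, with SDs of 0.341 to 0.452 over runs. The difference was thus above 0 on all 4 bases, and G was already high in vitro.

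**Figure D1:**
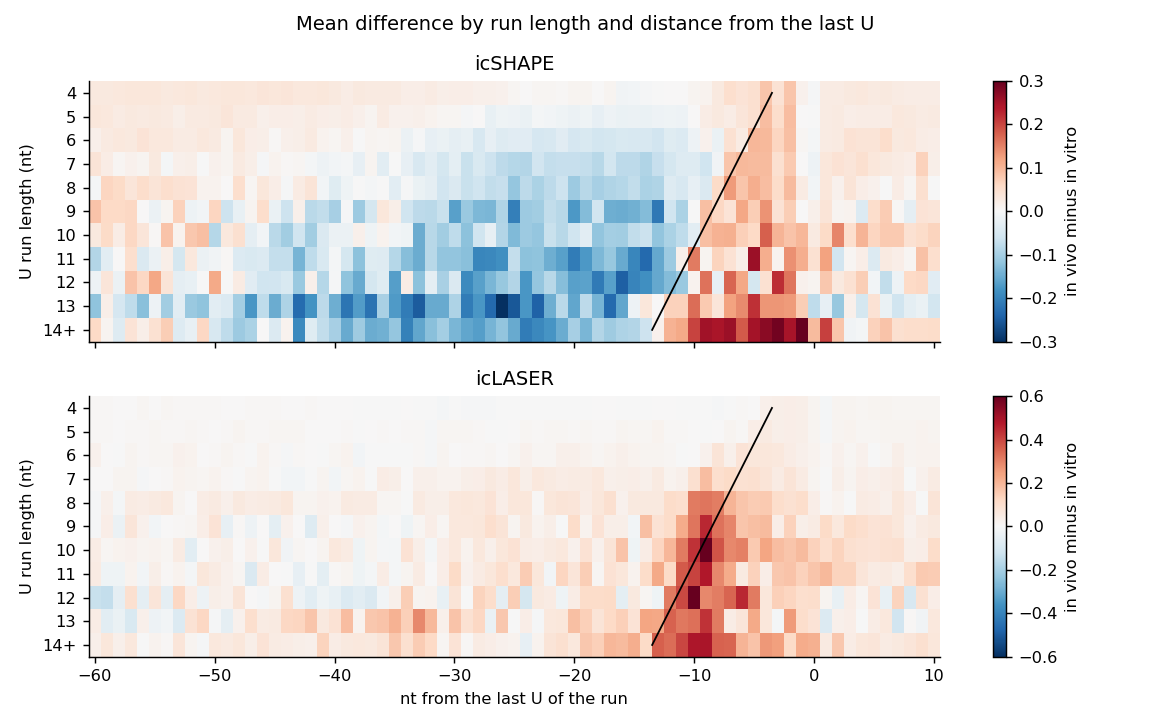
Mean in vivo minus in vitro difference (colour, red higher in vivo, with a different scale for each reagent) by length of the U run in nt (vertical axis, 4 to 14 or more) and distance in nt from the last U (horizontal axis), where the black line marks the first U. In icLASER the strongest red stays 9 to 10 nt before the last U while the first U moves past it, and in icSHAPE a blue band lies before the run from a length of about 6 U upward.

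The nucleotides before the run behaved in the opposite way in icSHAPE. Over the 20 nt before the first U icSHAPE averaged 0.157 on purified RNA and 0.0519 in cells, and the median difference was -0.0691, with quartiles of -0.150 and -0.02105. With the median over the 20 positions in place of their mean, the median difference was 0. The difference of the means was below 0 in 303 of the 345 runs, where 34.7% of tiled 20-nt windows were, and at or below -0.1 in 133, against 8.12% of windows. It was above 0 in 33, against 63% of windows. No run reached 0.1 in the other direction, against 18.8% of windows. The largest positive value was 0.0951, before a 9-U run of VASP. In the same 20 nt icLASER moved up in cells, by 0.0738 in the median. It was above 0 in 254 runs (52.5% of windows) and below 0 in 84 (45.6%), at least 0.1 in 148 (12.8%) and at or below -0.1 in 24 (12%).

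The reach of the icSHAPE decrease was followed in steps of 10 nt. The mean in vivo score was 0.0608 over the 10 nt next to the run and 0.0442 from 20 to 11 nt before it, where the in vitro means were 0.148 and 0.159. It was 0.113 from 30 to 21 nt and 0.150 from 40 to 31 nt, beside 0.174 and 0.167 in vitro. From 50 to 41 nt before the run the in vivo mean was the higher again, by 0.0199, and the differences in bins farther out, to 100 nt, were between 0.0159 and 0.0263. After the run no such decrease was seen. Over the 20 nt after the last U the median difference was 0.0313 for icSHAPE and 0.0453 for icLASER in the 343 runs with a scored position there.

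The in vivo level before the run was lower in long than in short runs, though not at each step. The mean icSHAPE in vivo score over the 20 nt before the run was 0.174 for single U, 0.127 for runs of 5 U, 0.0854 for 7 U, 0.0635 for 8 U, 0.0749 for 9 U, 0.0392 for 10 U and 0.0447 for 11 U. It was 0.0300 for 12 U, 0.0337 for 13 U and 0.0286 for 14 U or more. The in vitro means at 1, 5, 7, 8 and 14 or more U were 0.146, 0.130, 0.144, 0.134 and 0.179. The Spearman correlation of run length with the difference before the run was -0.21 across the 345 runs. In 23 runs the icSHAPE in vivo score was exactly 0 over all scored positions before the run, compared with 13 runs in vitro. Over all positions of the transcripts 41.4% were at 0 in vivo and 60.2% in vitro. No share of tiled windows at 0 was taken, so these counts are a description only.

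Among single runs, the 11-U run of HNRNPA1 was preceded by a mean icSHAPE score of 0.4685 in vitro and 0.0455 in vivo. In SUMO2 the values were 0.423 and 0.0067, and in LSM14A, a component of cytoplasmic mRNP granules, 0.867 and 0.0904. BIRC5, which encodes the apoptosis inhibitor survivin, had 0.575 and 0.0463 before its run of 13 U, and COX7A2L, a mitochondrial supercomplex factor, 0.576 and 0.0108. The runs of LSM14A, BIRC5 and COX7A2L and those of NMD3 and MIR4435-2HG are the only ones with a decrease of over 0.5. BIRC5, COX7A2L, MIR4435-2HG and VASP are named here after their values were seen. In NMD3 and MIR4435-2HG only 2 and 1 nt before the run were scored, so their values of 1.00 in vitro and 0 in vivo rest on those. All 20 nt were scored in 335 runs.

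Both features were present in most runs. The icLASER window was higher and the icSHAPE flank lower in vivo in 268 of 343 runs, both by at least 0.1 in 111, and neither held in 11. Each feature alone was present in most runs, so a high joint count would arise without a link between them. No joint share was taken over tiled windows, and nothing further is read from these counts. The sizes of the 2 differences were only weakly related over runs, with a Spearman correlation of -0.10 and a Pearson correlation of -0.03.

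Within the run, icSHAPE had its own gradient, and it was present with and without cells. The last 3 U exceeded the first 3 U by a median of 0.0647 in vitro and 0.0910 in vivo. The last 3 were the higher in 235 and 242 runs and the first 3 in 61 and 88, counts that were not taken over tiled windows. The score was highest on the next-to-last U, where it averaged 0.294 in vitro and 0.379 in vivo. The in vivo minus in vitro difference had a median of -0.00100 for the last 3 minus the first 3 U over all runs, which pools unlike lengths. In runs of 8 U its mean was 0.127, 0.0837 and 0.108 on the first 3 U and 0.0939, 0.0254 and -0.0078 on the last 3. In runs of 14 or more it was 0.0136 and 0.104 at 13 and 12 nt before the last U. There the last 3 U had 0.247, 0.330 and 0.0939. In icLASER the gradient ran the other way in cells, with a median of -0.105 for the last 3 minus the first 3 U, and was 0 in vitro.

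The icLASER difference was larger in longer runs. The median icLASER difference was 0.0370 in the 333 runs of 7 U, 0.0749 in the 133 runs of 8, 0.137 in the 50 runs of 9 and 0.240 in the 46 runs of 10, and it was 0.278 in the 50 runs of 14 or more. Runs of 10 or more exceeded runs of 8 by 0.172 in the median. Beyond 10 U there was no further steady rise, since the medians at 11, 12 and 13 U were 0.219, 0.343 and 0.203. For icSHAPE the median was 0.0393 at 7 U, 0.0581 at 8, 0.0209 at 9, 0.0758 at 10 and 0.116 at 14 or more, and runs of 10 or more differed from runs of 8 by 0.0347. An interval combined from binomial 95% intervals of both medians over runs was -0.000785 to 0.0675 for icSHAPE, which spans 0, and 0.103 to 0.214 for icLASER. These intervals cover counting error only, take runs of the same gene as separate, and are no test. With the median over the positions of a run the icSHAPE value was -0.0005. The Spearman correlation of the difference with length was 0.30 for icLASER and 0.14 for icSHAPE. A longer run also holds more of the icLASER peak, which sits about 9 nt before its last U, and the part of this in the values by length was not tested. The window 10 to 7 nt before the last U, whose place does not depend on length, had mean icLASER differences of 0.287 at 8 U and 0.433 at 10. It had 0.280 at 13 and 0.419 at 14 or more.

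The 8 longest runs were those of NMD3 (30 U), SNORD3B-1 (28), MTA2 (27), HNRNPL (26), CTNNB1 (25), SET (24), TMED4 (24) and NUTF2 (22). In MTA2, a subunit of the NuRD chromatin remodeller, the icSHAPE run mean was 0.0453 in vitro and 0.335 in vivo, and icLASER was 0.266 and 0.473. In SET, a histone chaperone, icSHAPE went from 0.158 to 0.482 and icLASER from 0.192 to 0.378. CTNNB1, which encodes beta-catenin, was the one of these, besides NMD3, that was lower in vivo with icSHAPE, at 0.0937 in vitro and 0.0466 in vivo, while its icLASER mean was 0.358 and 0.610. In NMD3 the icSHAPE mean was 0.433 in vitro and 0.131 in vivo, with icLASER at 0.459 and 0.474. HNRNPL, a splicing regulator read here from a retained-intron transcript, was the only one lower in vivo with icLASER, at 0.323 in vitro and 0.297 in vivo.

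In 3′ UTRs, where most runs lay, the median difference was 0.0708 for icSHAPE and 0.175 for icLASER, with 182 and 210 of 253 runs above 0. Runs of transcripts annotated as retained-intron were counted wherever they lay, and whether each was in an intron or an exon was not determined. Their medians were 0.125 and 0.145, with 30 and 23 of 34 runs above 0. Retained-intron runs therefore exceeded 3′ UTR runs by 0.0542 in icSHAPE, and this value changed to -0.0126 when all length-matched transcripts were used. In the 44 runs of other noncoding transcripts the medians were 0.0565 and 0.171. The icLASER window had a median difference of 0.374 in 3′ UTRs, 0.377 in retained-intron and 0.178 in other noncoding transcripts, and the icSHAPE flank -0.0632, -0.0763 and -0.0826. Only 15 runs had an annotated splice acceptor within 50 nt after them, with a median icLASER window difference of 0.124, beside 0.355 in the other 330. With so few, no order of these locations is drawn.

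The 8 coding runs were those of ICAM4, RTN3, HDGF, SNRNP27, CANX, DSTN, NDUFC2-KCTD14 and CHPT1. In the reading frame, 5 of the coding runs began at the first codon position, 1 at the second and 2 at the third. Median differences in coding runs were 0.0571 for icSHAPE and 0.0701 for icLASER, and 6 of 8 were above 0 with each reagent. All had 8 or 9 U. The icLASER window was higher in vivo in 7 of the 8, with ICAM4, a red cell adhesion protein, as the exception at 0.191 in vitro and 0.145 in vivo. In RTN3, a reticulon of the endoplasmic reticulum, it went from 0.144 to 0.863, and in NDUFC2-KCTD14 from 0.0245 to 0.868. In the 6 runs of 5′ UTRs the medians were 0.2004 for icSHAPE and 0.0358 for icLASER.

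The highest and lowest differences are given as the rule chose them. For icLASER the 5 highest genes were YWHAZ, VIM, GANAB, HNRNPUL1 and PTP4A2, all in 3′ UTRs. The 10-U run of VIM, the intermediate filament vimentin, averaged 0.135 in vitro and 0.958 in vivo, with 1.0 in vivo at 9, 8, 5, 3, 2 and 1 nt before its last U. In GANAB, a glucosidase of the endoplasmic reticulum, the run mean was 0.0218 in vitro and 0.837 in vivo. HNRNPUL1 had 0.0399 and 0.855, and PTP4A2, a protein tyrosine phosphatase, 0.0281 and 0.799. In these 4 runs the icLASER signal was spread over the run, unlike that of HNRNPA1 or HNRNPK. This follows from how they were chosen, since so high a run mean on scores of at most 1 needs most positions to be high. The icSHAPE run mean of PTP4A2 stayed at 0.0290 in vitro and 0.000625 in vivo.

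The 5 lowest genes in icLASER were CDK6, RAP1B, SYPL1, FSCN1 and SINHCAF. CDK6, a kinase of the G1 phase, averaged 0.691 in vitro and 0 in vivo, and RAP1B, a small GTPase, 0.598 and 0.1235. In CDK6 every position from 16 nt before to 5 nt after the last U was at 0 in the icLASER in vivo profile, at a mean of 7.98 RPKM. In all, 14 runs were at exactly 0 over the whole run in that profile, where 46.3% of all positions were at 0. No share of tiled windows at 0 was taken.

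For icSHAPE the 5 highest genes were C4orf3, PRDX3, PABPN1, SNHG3 and NUDT4, at in vivo means of 0.662 to 0.756 and in vitro means of 0.0288 to 0.168. PABPN1 encodes the nuclear poly(A)-binding protein, PRDX3 a mitochondrial peroxiredoxin, and SNHG3 is a snoRNA host gene. In PRDX3 the icLASER run mean was 0 in both conditions. The 5 lowest were LSM14A, CDC42, EZR, TMEM38B and ENSG00000275097. LSM14A went from 0.942 in vitro to 0.271 in vivo while its icLASER mean was 0.965 and 0.895. In EZR, which links actin to the membrane, icSHAPE went from 0.337 to 0 and icLASER from 0.419 to 0.850.

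For the most abundant transcripts by mean RPKM, the runs of RPS28, EEF1A1, HNRNPA1, H3-3A, CEBPZOS and SUMO2 were taken. The read depth behind each of their scores is unknown. The icLASER run mean of CEBPZOS (14 U, 163 RPKM) was 0.076 in vitro and 0.601 in vivo, and SUMO2 had 0.2185 and 0.573. RPS28, a ribosomal protein gene read here from a retained-intron transcript at 582 RPKM, had 0.00488 and 0.152, with its window going from 0.00825 to 0.350. H3-3A, a replication-independent histone, had 0.0724 and 0.220. HNRNPA1 held another run of 8 U farther along (chr12:54284872-54284879), which stayed at 0.0173 in vitro and 0.0158 in vivo where its 11-U run had 0.036 and 0.404. EEF1A1, the translation elongation factor, had 0 in vitro at both of its runs and 0.111 and 0.125 in vivo. EEF1A1, HNRNPA1, RPS28, SET and the snoRNA gene SNORD3B-1 have near-identical copies in the genome, and their scores are uncertain where reads could be shared among copies. Among all runs the Spearman correlation of mean RPKM with the icLASER window difference was 0.21.

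The genes with the most runs were CANX with 6 and DDX17, PABPN1 and SNHG16 with 4 each. In CANX the icLASER window was higher in vivo in 6 of 6 runs, by least in an 8-U run at 0.516 in vitro and 0.522 in vivo. The icLASER mean over that same run was lower in vivo, at 0.231 in vitro and 0.141 in vivo. The CANX windows of the 12-U run and of the last 9-U run were at 1.0 in vivo, from 0.286 and 0.515 in vitro. In DDX17, an RNA helicase, 3 of the runs follow each other within a U-rich stretch and share flanks. The icLASER run mean was higher in vivo in all 4, at in vivo means of 0.436 to 0.544. The icLASER window of the 13-U run was 0.5 in both conditions. With icSHAPE the run mean was lower in vivo in each DDX17 run but that of 13 U, at 0.0462 in vitro and 0.121 in vivo. In PABPN1 the icLASER difference of the run mean was below 0 in 1 of 4 runs, the 8-U run, and in SNHG16, a snoRNA host RNA, also in 1 of 4.

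A list of 20 RNA-binding protein genes was drawn up for U-run binding, but it includes poly(C)-binding proteins such as HNRNPK and PCBP2. Of these 20 genes, 13 were among the matched transcripts and 5 held a run. These were U2AF1, KHSRP, HNRNPK, PCBP2 and FUBP1, with 6 runs in 3′ UTRs. The icLASER run mean was higher in vivo in 6 of 6 runs and the icSHAPE run mean in 6 of 6, at median differences of 0.263 and 0.157. Over all 345 runs the shares were 79.7% and 73.6%, so these counts set the listed genes apart in no way. In FUBP1, which binds single-stranded DNA and RNA, the 18-U run went from 0.152 to 0.691 in icLASER, and in PCBP2, a poly(C)-binding protein, the run of 12 U from 0.119 to 0.611. KHSRP, an mRNA decay factor, held runs of 10 and 8 U at differences of 0.199 and 0.0564. Of 20 mRNAs known for AU-rich 3′ UTRs, 3 were among the matched transcripts and 0 held a run. Over all 3032 genes 8.25% held a run.

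The surroundings of the runs were compared by sequence. The base after the run was A in 131 runs, C in 114 and G in 100, and the median icLASER window difference was 0.264, 0.366 and 0.429. The base before was A in 142, C in 120 and G in 83, with medians of 0.304, 0.361 and 0.375. AUUUA occurred within 20 nt on either side in 29 runs (8.41%, beside 3.17% of paired 20-nt windows of the same transcripts), with a window median of 0.250 beside 0.359 in the other runs. The polyadenylation signal AAUAAA occurred within 20 nt after the run in 16 runs (4.64%, beside 1.13% of 20-nt windows), at 0.484 beside 0.336. The antisense Alu sequence GAGACNG followed within 30 nt in 9 runs (2.61%, beside 1.05% of 36-nt windows). Motifs were searched on the transcript strand.

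Distance to the transcript end moved with the icLASER window. In the 96 runs within 200 nt of the 3′ end the median window difference was 0.516, and in the 249 runs farther away 0.257, while the icSHAPE flank was at -0.0537 and -0.0749. The run means followed, at 0.268 and 0.130 for icLASER and 0.0622 and 0.0783 for icSHAPE. The part of this distance in the differences was not tested.

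Interrupted runs were compared with unbroken ones. The 630 sites with 3 to 7 U, a single A, C or G, and 3 to 7 U, at least 8 U in all, had a median icLASER difference of 0.0353 in the window 10 to 7 nt before the last U, beside 0.342 in unbroken runs and 0.246 in runs of exactly 8 U. The difference was at least 0.1 at 36.4% of interrupted sites and 79.0% of unbroken runs. The medians were 0.0193 for an interrupting A, 0.0698 for C and 0.0308 for G. In the 20 nt before, interrupted sites kept a decrease in icSHAPE, with a mean of 0.125 in vitro and 0.0795 in vivo and a median difference of -0.0410, beside -0.0691 in unbroken runs. These sites were chosen after the profiles were seen, and the comparison has no test.

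Runs of 8 or more A, found in the same way, numbered 308. Their median run difference was 0.0151 for icSHAPE and 0.0374 for icLASER, and 21.4% and 37.7% reached 0.1, compared with 41.2% and 64.1% of U runs. Their median icLASER difference in the window 10 to 7 nt before the last A was 0.00638. Over the 20 nt before A runs icSHAPE averaged 0.157 on purified RNA and 0.150 in cells, where before U runs it averaged 0.157 and 0.0519. In icLASER, A runs were preceded by a broad rise instead, with mean differences of 0.116 and 0.132 over the bins 40 to 31 and 30 to 21 nt before the first A, where U runs had 0.0266 and 0.0387.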

How the data were processed

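The data were per-nucleotide reactivity profiles of K562 RNA. Per the methods of the study, the authors aligned reads to the Ensembl release 88 transcriptome (GRCh38) and ran the icSHAPE pipeline without the coverage minimums of its last filter. The submitters' processing notes name Trimmomatic and Bowtie2. The labels of all replicates and controls point to the same profile, which is therefore taken as pooled, and how they were combined was not given in the sources used here. Tool versions were not given in the sources used here. The deposited score is the enrichment of reverse transcription stops over the control, scaled within a transcript to between 0 and 1, and the deposited RPKM is the authors' transcript abundance. The read depth behind a single score is unknown, so no interval was attached to it. A total of 16 scores outside 0 to 1 were left out.

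Of 20512 transcripts in any profile, 10589 were in all 4, and 7652 of these had the length of their GENCODE release 44 (GRCh38) entry. The transcript with the highest mean RPKM was kept per gene (3032). A run, its flanks of 20 nt and the window were averaged over scored positions, and in vitro was subtracted from in vivo. Backgrounds were non-overlapping windows tiled along the same transcripts. Intervals of shares are Wilson 95% intervals and cover counting error only. With 1 pooled profile per reagent and condition no test was run. Python 3.11.15 with numpy 2.4.6, pandas 2.3.3, scipy 1.17.1 and matplotlib 3.10.9 was used, and the run finder was tested on simulated data.

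The runs and gene lists were chosen with earlier results of these data known, and the window, the 20 nt before the run as a separate result and the interrupted runs were chosen after the profiles had been seen. Named runs were the 8 longest, the 5 highest and 5 lowest differences per reagent (1 per gene), those of the 6 genes with the highest RPKM, those of the 4 genes with most runs and those of the listed genes. Others are named where a count of 5 or fewer rests on them or were chosen after their values were seen. Sequences of chromosome 8 are not shown.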

Additional observations from a re-analysis of the deposited data

Results flagged for a closer look

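The reagents moved in opposite directions over the 20 nt before the run. The median in vivo minus in vitro difference there was -0.0691 for icSHAPE and 0.07375 for icLASER over 345 runs. It was picked out because the reagents differ in sign, and with pooled profiles the difference between them was not tested.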

How the results depend on the processing

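Of 201 recomputed values, 140 stayed within the interval of the value reported, 61 moved outside it and 0 reversed a called value. Those intervals cover counting over runs only and are no test. The causes were not tested. With the median over the positions of a run, the icSHAPE difference was 0.053 (61.4% of runs higher, 0.0715 above the flanks) and icLASER was 0.092 (64.1% higher, 48.7% past 0.1, 0.05 above the flanks), and the icSHAPE difference before the run was 0. Subtracting each transcript's mean difference gave 0.051 for icSHAPE (64.3% higher, 32.5% past 0.1) and -0.0951 before the run, and dividing by the transcript mean gave 0.0577 (67.5%, 33.6%) and -0.0828. With all length-matched transcripts 68.6% of runs were higher in icSHAPE, and retained-intron minus 3′ UTR runs gave -0.0126. icLASER was then 0.135 (74.4% higher) and its window 0.25. With runs of 10 or more U, icSHAPE was 0.0928 (80.2% higher, 0.129 above the flanks, 0.169 for last minus first 3 U in vivo). icLASER was then 0.247 (87.0% higher, 77.8% past 0.1, 0.165 above the flanks, -0.360 for the ends), its window 0.430, and the gain from 10 to 12 or more U 0.0243. With runs of 6 or more U, icSHAPE was 0.0479 (64.1% higher, 0.061 above the flanks, 0.0403 for the ends, -0.0396 before the run) and icLASER 0.0519 (66.0% higher, 37.4% past 0.1, 0.0297 above the flanks, 0 for the ends, 0.0771 in the window). Moving icLASER scores 1 nt downstream gave 84.9% of runs higher, 69.2% past 0.1, 0.131 above the flanks and -0.212 for the ends. Moving them upstream gave a difference of 0.146, 58.0% past 0.1, 0.0723 above the flanks, -0.0477 for the ends and 0.271 in the window. At 20 RPKM or more in all profiles, icLASER was higher in 87.7% of runs, past 0.1 in 71.6% and 0.451 in the window, and icSHAPE before the run was -0.0832. Runs over 200 nt from the transcript end had a window of 0.257. With a limit of 0.05, 58.8% (icSHAPE) and 72.2% (icLASER) passed, and with 0.2, 18.6% and 45.2%. The icLASER retained-intron minus 3′ UTR difference ranged from -0.115 to 0.141, and the icSHAPE gain with length from -0.0005 to 0.0567. No paired analysis was possible because each reagent and condition has 1 pooled profile, and for the same reason no replicate could be left out.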
